A study of Sus scrofa with 16 samples.

Results

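The genes described here encode the nuclear subunits of the mitochondrial respiratory chain and of ATP synthase, in the liver of pigs fed 3 different fats. They were chosen by symbol (NDUFA, NDUFB, NDUFC, NDUFS, NDUFV, SDHA to SDHD, UQCR, COX4 to COX8, ATP5, CYC1 and CYCS), leaving out assembly factors and the genes of the mitochondrial genome. Of the 25880 genes listed, 66 carried such a symbol, and 59 had at least 10 reads in at least 5 of the 16 libraries, as did 7275 of all genes. By complex, 26 of 30 genes were kept for complex I, 4 of 4 for complex II, 6 of 7 for complex III, 11 of 13 for complex IV and 11 of 11 for ATP synthase (complex V), together with cytochrome c (CYCS). Subunits with no identifier paired to their symbol, such as ATP5F1B, COX6B1 and UQCRH, were not analysed here.

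The pigs were crossbreds of (Polish Landrace x Polish Large White) sows and (Duroc x Pietrain) boars, fattened from 60 to 118 kg in individual pens on diets of like energy and protein. The fat was rapeseed oil for the 5 pigs of group R, beef tallow for the 5 of group B and coconut oil for the 6 of group C, and 8 of the 16 pigs were female. The females were rapeseed oil pigs 1, 2 and 4, beef tallow pigs 1 and 3, and coconut oil pigs 1, 3 and 5. There was no group without added fat, so every comparison was between fats. Each pig gave 1 library, made from the 3′ ends of mRNA with QuantSeq, in which a read stands for the end of a transcript whatever its length.

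Complex I takes electrons from NADH and complex II, which is also the succinate dehydrogenase of the citric acid cycle, takes them from succinate. Both pass them through ubiquinone to complex III, cytochrome c carries them on to complex IV, and complex IV reduces oxygen. The protons pumped on the way drive ATP synthase, and in liver the chain works off the reduced coenzymes that the oxidation of fatty acids yields.

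The kept genes had between 250 and 10642 reads over all pigs, and their mean TMM-normalized count per library size (CPM) ran from 13.1 to 588, with a median of 97.3. They took 0.654% to 0.723% of the reads on genes in group R, 0.600% to 0.690% in group B and 0.709% to 0.826% in group C. Every pig of group C thus lay above every pig of group B, while groups R and C overlapped. Reads on genes numbered 705669 to 1767671 per pig. The 8 liver markers summed to at least 77815 CPM in each pig, while the 6 adipose markers summed to at most 23.2 CPM with LEP at 0. Since whole tissue was used, fewer cells of a type and less RNA per cell cannot be told apart.

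One library stood apart. Beef tallow pig 3 was the lowest of the 16 pigs in 15 of the 59 genes and the highest in 14, against 17.1% and 15.8% of all 6891 genes tested over the 16 pigs. Its low genes were ATP5MC3, ATP5PO, COX7A2L, COX7B, COX7C, NDUFA4, NDUFB4, NDUFB5, NDUFB9, NDUFS1, NDUFS4, SDHB, SDHC, SDHD and UQCRC2. In 7 of these 15, coconut oil pig 1 was the second lowest, namely ATP5MC3, COX7A2L, NDUFA4, NDUFB5, NDUFS1, SDHD and UQCRC2. For NDUFB5, an accessory subunit of the membrane arm of complex I, beef tallow pig 3 had 8.39 CPM and coconut oil pig 1 had 17.5 CPM, while the other 14 pigs lay between 48.9 and 74.3 CPM. In beef tallow pig 3 33.2% of all tallied reads aligned to several places, the highest share in group B but below the 38.1% of coconut oil pig 3. In coconut oil pig 1 the share was 15.4%, the lowest of all 16 pigs. What part of these levels that share had was not tested. Where leaving out beef tallow pig 3 turned the sign of a value given for a named gene of the 59, or moved it by much, the value without that pig is given beside it.

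**Figure D1:**
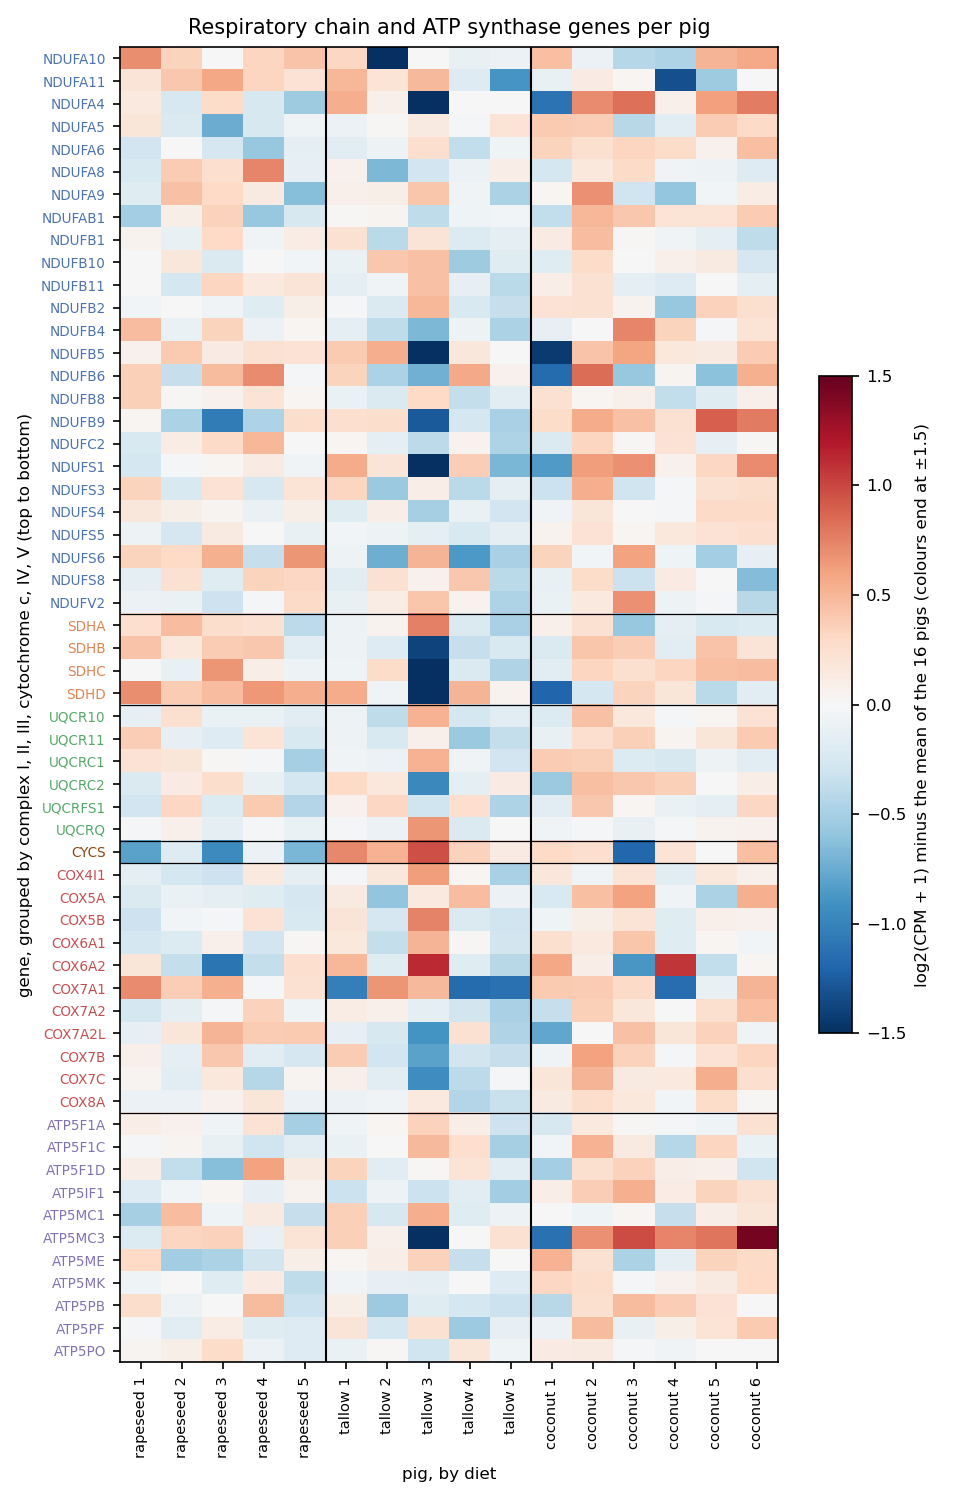
Level of 58 of the genes (rows, grouped by complex) in each of the 16 pigs (columns, by diet), as log2(CPM + 1) minus the mean of the 16 pigs, with red above and blue below that mean and colours ending at 1.5 on either side. Most of the deepest blue cells sit in the column of beef tallow pig 3, among them ATP5MC3 at 0.645 CPM, with NDUFA10 in beef tallow pig 2 another at 10.4 CPM, and most cells of the coconut oil pigs are red.

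Cytochrome c was the only one of the 59 genes that passed the adjusted edgeR test in any pair of diets. CYCS, the mobile carrier between complexes III and IV, lies at chr18:47169921-47172212 of Sscrofa11.1 by RefSeq's annotation. In group R its 5 pigs had 81.1, 124, 72.5, 133 and 88.0 CPM, and in group B 235, 205, 278, 181 and 154 CPM. Group C ran from 62.1 to 194 CPM with a median of 166. All pigs of group B lay above all pigs of group R, the 1 such gene of 59 (2.6% of all genes in this direction, and 0 of 59 against 1.98% in the other), and group C overlapped both. Coconut oil pig 3 was the lowest of all 16 pigs, below every pig of group R. CYCS rose 2.12-fold in group B against group R, a log2 fold change of 1.08 (SE 0.21, edgeR quasi-likelihood adjusted p = 0.0285 over 6318 genes), from 99.7 ± 27.0 CPM (SD, n = 5) to 211 ± 48 CPM (SD, n = 5). Without beef tallow pig 3, its highest pig, the log2 fold change was 0.96 (SE 0.20, edgeR adjusted p = 0.0249). The call was lost on leaving out any one of rapeseed oil pigs 1, 3 and 5 or beef tallow pigs 1, 2 and 4, with an adjusted p of at most 0.0903.

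Set against group R, the coconut oil pigs had a CYCS log2 fold change of 0.60 (SE 0.23, edgeR adjusted p = 0.284), and against group B one of -0.48 (SE 0.24, edgeR adjusted p = 0.447). Neither passed the threshold, and without beef tallow pig 3 the value against group B was -0.35 (SE 0.23). The pairs of diets share pigs, so the values of 1 gene in 2 pairs are not independent. In the test for a difference between any of the diets over all 16 pigs, CYCS had the smallest adjusted p of the 59 genes, 0.0698, and 0 of 59 passed in edgeR, against 0.711% of all 6891 genes. At an unadjusted p under 0.05 it gave 8 of the 59 genes, or 13.6%, against 15.9% of all genes, and DESeq2 called 3, NDUFB9, CYCS and ATP5IF1.

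**Figure D2:**
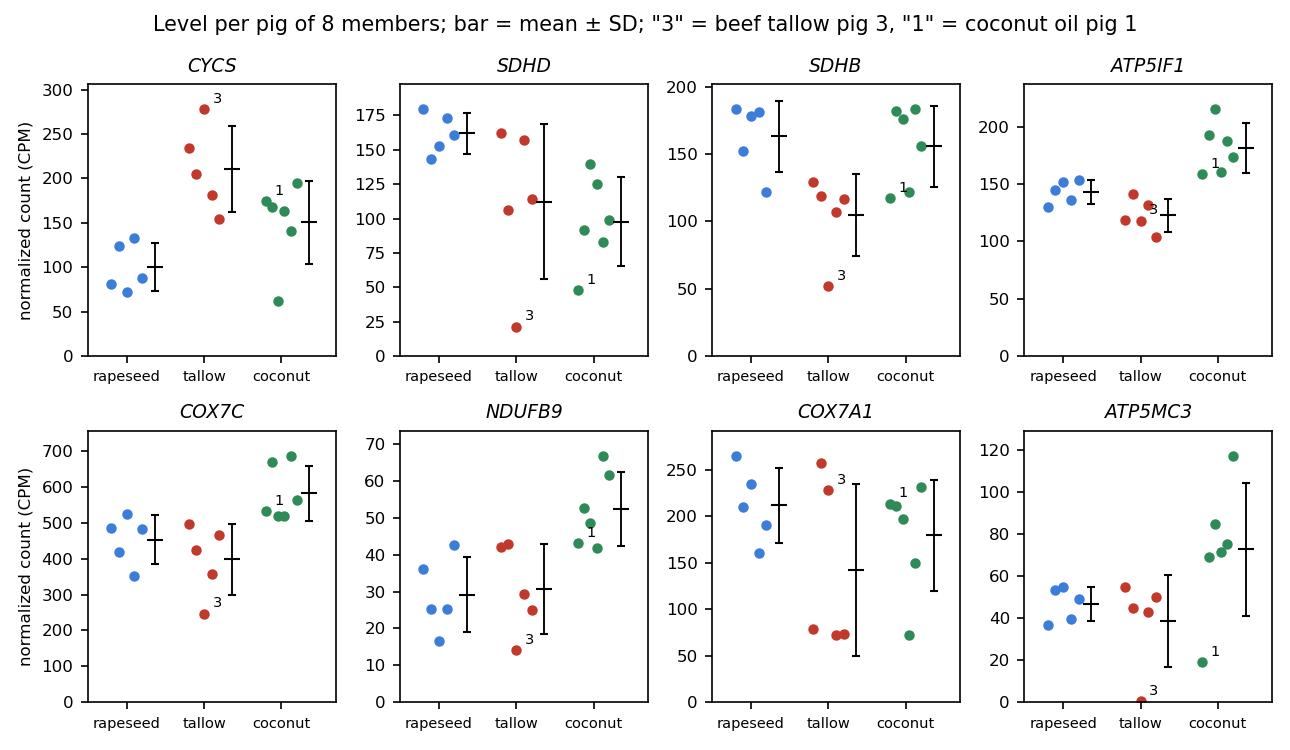
Normalized counts (CPM, linear axes from 0) of 8 genes in each pig by diet, with the mean ± SD of each diet as a bar. CYCS does not overlap between the rapeseed oil and beef tallow pigs, ATP5IF1 of the coconut oil pigs lies above both other diets, and the low point marked 3 for SDHD (21.3 CPM) and SDHB (51.6 CPM) is beef tallow pig 3.

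For group B against group R, 25 of the 59 genes had a higher and 34 a lower fitted level in group B. The median log2 fold change was -0.06, with 0.01 for all genes tested. CYCS was 1 of 59 past the threshold, or 1.69%, against 1.11% of all genes. At an unadjusted p under 0.05 there were 4 of 59 (6.78%, against 15% of all genes), CYCS higher (1 of 59, against 8.33% of all genes) and SDHB, NDUFB4 and COX7A2L lower (3 of 59, or 5.08%, against 6.66%). Without beef tallow pig 3, 20 of 59 were higher, the median was -0.07 and 8 genes had an unadjusted p under 0.05, and CYCS remained the 1 gene past the threshold.

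For group C against group R, 41 of the 59 genes were higher (69.5%, against 49.9% of all genes), with a median log2 fold change of 0.08 and of -0.00 over all genes. None passed the threshold in edgeR, against 0.138% of all 6528 genes tested, and the smallest adjusted p was 0.118. At an unadjusted p under 0.05 there were 9 of 59, or 15.3%, against 13% of all genes. Of these, 7 were higher in group C (11.9%, against 6.45% of all genes), among them ATP5IF1, ATP5MC3, COX7C, CYCS, NDUFA6 and NDUFB9. NDUFA11 and SDHD were lower (3.39%, against 6.53%). DESeq2 called 3, namely NDUFA6, NDUFB9 and SDHD.

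For group C against group B, 45 of the 59 genes were higher (76.3%, against 49.6% of all genes), and the median log2 fold change was 0.15, with -0.00 over all genes. None passed the threshold in edgeR, against 0.0587% of all 6812 genes, and the smallest adjusted p was 0.210. The 10 genes with an unadjusted p under 0.05, or 16.9% against 11.5% of all genes, were all higher in group C, a direction in which 5.24% of all genes had such a p, with 6.21% in the other. They were ATP5IF1, ATP5PB, COX7B, COX7C, NDUFA6, NDUFB4, NDUFB9, SDHB, SDHC and UQCR11, of which DESeq2 called 1, ATP5IF1. Without beef tallow pig 3, 52 of 59 were higher in group C, the median was 0.19, and 11 genes had an unadjusted p under 0.05, still with none past the threshold. Over each pig left out in turn the median stayed between 0.10 and 0.20.

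**Figure D3:**
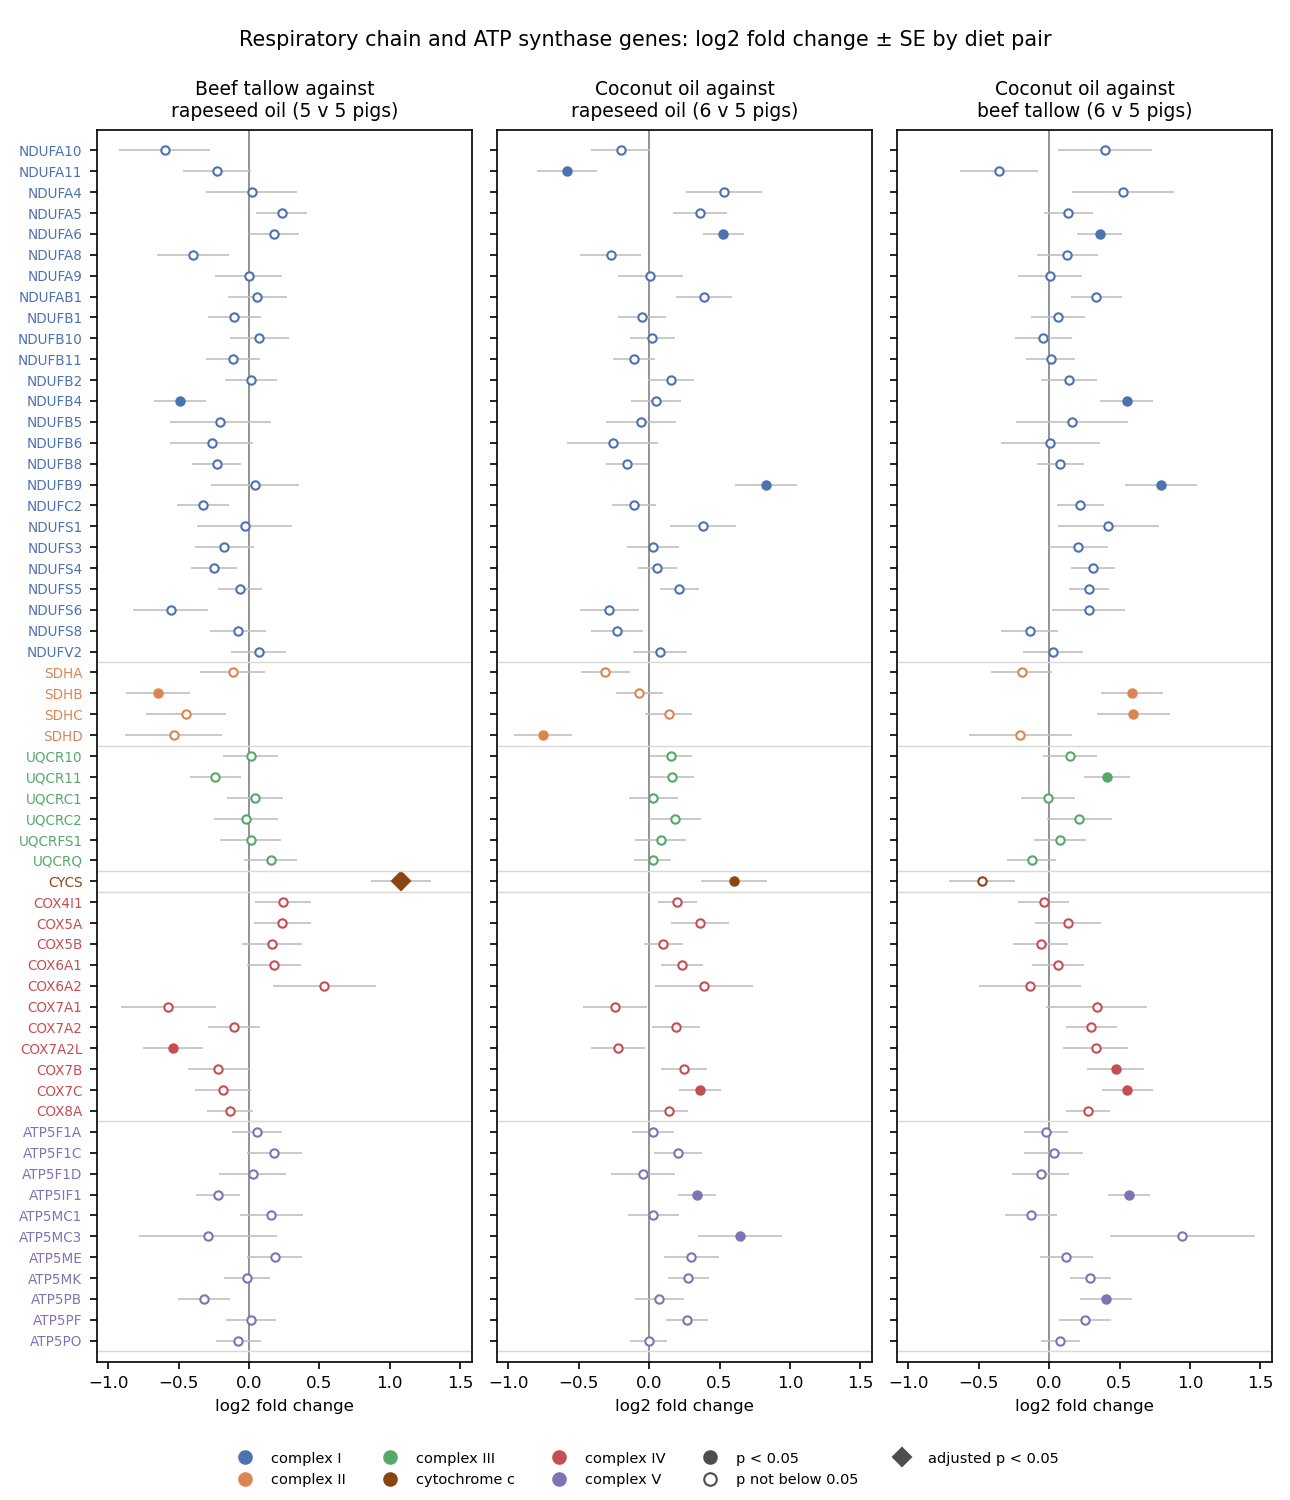
Fitted log2 fold change (x axis) of 58 of the genes (y axis, coloured by complex) in the 3 pairs of diets, with bars of 1 SE, filled points where the unadjusted p is under 0.05 and a diamond where the adjusted p is. CYCS, at 1.08 in the left panel, is the single diamond, and in the right panel 44 of 58 points lie above 0.

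Complex I takes in NADH through the flavin and iron-sulphur subunits of its NDUFV and NDUFS families, and the NDUFA, NDUFB and NDUFC families are mostly accessory. Of its 26 genes, 9 had a higher level in B against R, 15 in C against R and 23 in C against B. These were 34.6%, 57.7% and 88.5%, against 51.5%, 49.9% and 49.6% of all genes. The median log2 fold changes of the 26 were -0.09, 0.03 and 0.18 in that order. None of the 26 passed the threshold in edgeR, and 1, 4 and 3 had an unadjusted p under 0.05 (15%, 13% and 11.5% of all genes). DESeq2 called NDUFA6 and NDUFB9 in C against R.

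NDUFB9 (chr4:15105305-15113281), an accessory subunit of the membrane arm, had the smallest unadjusted p of the complex. Group R had 36.2, 25.2, 16.5, 25.3 and 42.5 CPM, group B 42.1, 42.8, 14.2, 29.3 and 25 CPM, and group C ran from 41.7 to 66.8 CPM with a median of 50.6. The lowest coconut oil pig was just below the highest pig of each other diet. The log2 fold change of group C was 0.83 (SE 0.22, edgeR adjusted p = 0.118) against group R and 0.79 (SE 0.25, edgeR adjusted p = 0.290) against group B, or 0.59 without beef tallow pig 3. Between groups B and R it was 0.04 (SE 0.31), or 0.24 without beef tallow pig 3 and -0.11 without beef tallow pig 1.

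NDUFA6, an accessory subunit that binds the acyl carrier protein of the complex (chr5:6562074-6567321), separated groups R and C. It had 61.8 to 91.9 CPM over the 5 pigs of group R, 71.2 to 110 CPM in group B and 96.8 to 127 CPM in group C. Every coconut oil pig lay above every rapeseed oil pig, and group B overlapped both. The log2 fold change of group C against R was 0.53 (SE 0.15, edgeR adjusted p = 0.140).

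NDUFA11, an accessory subunit of the membrane arm (chr2:73131029-73137921), lay the other way. Group R had 42.7 to 56 CPM, group B 19.6 to 52.7 CPM and group C 14.3 to 40.6 CPM. No coconut oil pig reached the lowest rapeseed oil pig, and the log2 fold change was -0.58 (SE 0.22, edgeR adjusted p = 0.269), or -0.45 without coconut oil pig 4, the lowest pig. Over the whole set of 59, groups R and C did not overlap for 3 genes higher in group C (5.08%, against 0.643% of all genes), ATP5IF1 and NDUFA6 among them, and for 2 lower (3.39%, against 0.812%), NDUFA11 and SDHD.

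NDUFB4 and NDUFS6, accessory subunits of the membrane and peripheral arms, were among the genes lowest in group B. NDUFB4 (chr13:139724145-139730492) had 136, 91.9, 125, 92.3 and 101 CPM in group R, 88.8, 75.2, 61.3, 93.1 and 70.7 CPM in group B, and 90.0 to 164 CPM in group C. Only beef tallow pig 4 reached the lowest pigs of the other diets. Its log2 fold change was -0.49 (SE 0.19, edgeR adjusted p = 0.217) for group B against R and 0.55 (SE 0.19, edgeR adjusted p = 0.299) for group C against B. Without beef tallow pig 3 these were -0.41 and 0.47. NDUFS6 spread more widely, from 32.4 to 85.2 CPM within group B, and its log2 fold change for group B against R was -0.56 (SE 0.27, edgeR adjusted p = 0.343), or -0.84 (SE 0.23, edgeR adjusted p = 0.0619) without beef tallow pig 3. NDUFC2, the gene of complex I with the highest CPM, had 137 ± 26.5 CPM (SD, n = 5) in group R, 109 ± 17.6 CPM (SD, n = 5) in group B and 127 ± 18.0 CPM (SD, n = 6) in group C, and its log2 fold change for group B against R was -0.33 (SE 0.18, edgeR adjusted p = 0.419).

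NDUFA4 was grouped with complex I by its symbol, although its protein is now held to be a subunit of complex IV. It had 50.3 to 89.1 CPM in group R, 18.7 to 108 CPM in group B and 33.5 to 130 CPM in group C. The diets overlapped, with beef tallow pig 3 and coconut oil pig 1 below every other pig. Its log2 fold change for group C was 0.53 (SE 0.27, edgeR adjusted p = 0.415) against R and 0.52 (SE 0.36, edgeR adjusted p = 0.595) against B, or 0.27 (SE 0.29) against B without beef tallow pig 3.

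NDUFS5, an accessory subunit on the intermembrane side, varied least among the 59 genes, with a within-diet SD of 0.10 on the log2 scale. It had 75.7 to 99.3 CPM in group R, 77.4 to 88.0 CPM in group B and 92.5 to 108 CPM in group C. Groups B and C did not overlap, although the log2 fold change was only 0.28 (SE 0.14, edgeR adjusted p = 0.451). In that pair 3 of 59 genes, ATP5IF1, COX7C and NDUFS5, were higher in group C without overlap (5.08%, against 0.573% of all genes), and 0 were lower (against 0.866%).

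Complex II has 4 subunits, all encoded in the nucleus: SDHA carries the flavin and oxidises succinate, SDHB holds the iron-sulphur clusters, and SDHC and SDHD anchor the enzyme in the membrane. All 4 had lower fitted levels in group B than in group R, where 51.5% of all genes were higher. The median log2 fold change of the 4 was -0.49, or -0.31 without beef tallow pig 3. None of the 4 passed the threshold in any pair in edgeR, with an unadjusted p under 0.05 for SDHB in group B against R, for SDHD in group C against R, and for SDHB and SDHC in group C against B. Of all genes, 15%, 13% and 11.5% had such a p in these pairs. DESeq2 called SDHD in group C against R.

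SDHB (chr6:75648362-75678111) had 183, 152, 178, 181 and 122 CPM in group R and 129, 119, 51.6, 107 and 116 CPM in group B. Group C ran from 117 to 183 CPM with a median of 166. Of the beef tallow pigs, only pig 1 lay above the lowest rapeseed oil pig. The log2 fold change of group B against R was -0.65 (SE 0.23, edgeR adjusted p = 0.174), or -0.47 (SE 0.17, edgeR adjusted p = 0.154) without beef tallow pig 3. For group C against B it was 0.59 (SE 0.22, edgeR adjusted p = 0.343), or 0.41 without that pig.

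SDHD (chr9:39790654-39803602) separated groups R and C. Group R had 180, 143, 153, 173 and 160 CPM and group B 163, 106, 21.3, 157 and 114 CPM, while group C ran from 47.8 to 139 CPM with a median of 95.0. All coconut oil pigs lay below all rapeseed oil pigs, and the beef tallow pigs spread over both, with pig 3 lowest of all. Against group R the log2 fold change of group C was -0.75 (SE 0.20, edgeR adjusted p = 0.125), -0.62 without coconut oil pig 1, its lowest pig, and for group B it was -0.54 (SE 0.35, edgeR adjusted p = 0.492), -0.26 without beef tallow pig 3.

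SDHC (chr4:89135410-89169164) had 559, 514, 882, 595 and 529 CPM in group R and 534, 673, 162, 480 and 406 CPM in group B. Group C ran from 497 to 769 CPM with a median of 696. Rapeseed oil pig 3 was the highest of all pigs and far above the others of its own diet. Beef tallow pig 3 was far below every other pig. The log2 fold change of group C against B was 0.60 (SE 0.26, edgeR adjusted p = 0.404), or 0.38 without beef tallow pig 3.

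SDHA (chr16:79838442-79862956) did not share the low value of beef tallow pig 3, which was its highest pig at 210 CPM. Over the diets it had 142 ± 28.4 CPM (SD, n = 5) in group R, 130 ± 47.2 CPM (SD, n = 5) in group B and 114 ± 21.6 CPM (SD, n = 6) in group C. The log2 fold change of group C against R was -0.31 (SE 0.17, edgeR adjusted p = 0.465). For group B against R it was -0.12, or -0.36 without beef tallow pig 3. For group C against B it was -0.20, turning to 0.05 without that pig. In beef tallow pig 3, then, SDHA was the highest and SDHB, SDHC and SDHD were the lowest of the 16 pigs.

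Complex III passes electrons from ubiquinol to cytochrome c. For its 6 kept genes, fitted log2 fold changes lay between -0.24 and 0.15 for group B against R, between 0.02 and 0.18 for group C against R, and between -0.13 and 0.41 for group C against B. None passed the threshold in edgeR or DESeq2, and 0, 0 and 1 had an unadjusted p under 0.05 in edgeR (15%, 13% and 11.5% of all genes). The largest fold change in size was that of UQCR11, a small accessory subunit, which had 157 to 238 CPM in group R, 125 to 193 CPM in group B and 169 to 241 CPM in group C. Its pigs overlapped between all diets. The log2 fold change of UQCR11 for group C against B was 0.41 (SE 0.16, edgeR adjusted p = 0.364), or 0.49 without beef tallow pig 3. In the same order of pairs, the Rieske protein gene UQCRFS1 had log2 fold changes of 0.01, 0.08 and 0.07, and the core protein gene UQCRC1 0.04, 0.03 and -0.01. Without beef tallow pig 3, UQCRC1 had -0.12 for group B against R and 0.15 for group C against B, and UQCRFS1 had 0.08 and 0.00.

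CYC1, the cytochrome c1 of complex III, had 0 reads in all 16 libraries, which allows a level of up to 0.165 CPM (3 reads of all reads on genes, counting error only). NDUFA2, NDUFB7 and COX6B2, the last a testis form, also had 0 reads in all pigs. NDUFV1, the flavin subunit of complex I, had 2 reads in all, COX4I2, an alternative form of a complex IV subunit, had 11, and NDUFA4L2, a paralogue of NDUFA4, had 16. Whether such a gene is silent, its 3′ end lies outside the annotated gene or its reads align to several places cannot be told apart from counts alone.

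Complex IV has a catalytic core from the mitochondrial genome, and its nuclear subunits surround it, several with a liver or ubiquitous and a muscle form. Of its 11 kept genes, 5 had a higher level in B against R, 9 in C against R and 8 in C against B, with median log2 fold changes of -0.11, 0.20 and 0.28. Of all genes, 51.5%, 49.9% and 49.6% were higher in these pairs. Without beef tallow pig 3, 4 of the 11 had a higher level in B against R and 11 of 11 in C against B. None passed the threshold in edgeR or DESeq2, and 1, 1 and 2 had an unadjusted p under 0.05 in edgeR (15%, 13% and 11.5% of all genes).

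COX7C (chr2:94345436-94347709), a small membrane-spanning subunit, had 486, 417, 524, 351 and 482 CPM in group R and 495, 423, 247, 357 and 467 CPM in group B. Group C ran from 518 to 686 CPM with a median of 548. All coconut oil pigs lay above all beef tallow pigs, and the highest rapeseed oil pig just overlapped group C. The log2 fold change was 0.55 (SE 0.18, edgeR adjusted p = 0.292) for group C against B, 0.42 without beef tallow pig 3, and 0.36 (SE 0.15, edgeR adjusted p = 0.308) for group C against R. COX7B, another small subunit, had a log2 fold change of 0.47 (SE 0.20, edgeR adjusted p = 0.404) for group C against B, or 0.35 without beef tallow pig 3.

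COX7A2L, known for its place in supercomplexes of complexes III and IV, had 86.2 to 134 CPM in group R, 49.7 to 110 CPM in group B and 54.2 to 127 CPM in group C. The groups overlapped, with beef tallow pig 3 and coconut oil pig 1 the lowest. Its log2 fold change for group B against R was -0.54 (SE 0.21, edgeR adjusted p = 0.234), or -0.41 without beef tallow pig 3.

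COX7A1, the muscle form of the subunit whose liver form is COX7A2, was read in every liver. It fell into a low and a high set of pigs, unevenly spread over the diets. Beef tallow pigs 1, 4 and 5 had 79.0, 72.2 and 74.0 CPM and coconut oil pig 4 had 72.7 CPM. The other 12 pigs lay between 150 and 265 CPM, all 5 rapeseed oil pigs among them. Mean levels were 212 ± 40.2 CPM (SD, n = 5) in group R, 142 ± 92.2 CPM (SD, n = 5) in group B and 179 ± 59.1 CPM (SD, n = 6) in group C, and the log2 fold change of group B against R was -0.57 (SE 0.34, edgeR adjusted p = 0.436). It was -0.90 without beef tallow pig 2 and -0.82 (SE 0.32, edgeR adjusted p = 0.199) without beef tallow pig 3. COX7A2 had 60.9 to 118 CPM over all pigs with no such gap.

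Of the 5 muscle markers, none was at 0 in every pig. They summed to 26.1 to 131 CPM in group R, 13.5 to 56.6 CPM in group B and 8.86 to 47.0 CPM in group C. CKM, the muscle creatine kinase, had at most 3.03 CPM, while ACTA1, skeletal muscle actin, reached 113 CPM in group R. ACTA1 was the only one of them tested, with a log2 fold change of -1.48 (SE 0.46, edgeR adjusted p = 0.184) for group C against R. COX6A2, the muscle partner of COX6A1, had 5.09 to 27.1 CPM over the pigs and COX6A1 92.9 to 170 CPM, with overlapping diets for both. COX4I1 and COX8A, ubiquitous subunits, had log2 fold changes of -0.04 and 0.28 for group C against B, neither past the threshold, and without beef tallow pig 3 these were 0.13 and 0.36.

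ATP synthase has a catalytic head, a stalk and a membrane ring of c subunits, and ATP5IF1 is the small inhibitor that stops it from running backwards. Of the 11 genes, 6 had a higher level in B against R, 9 in C against R and 8 in C against B, with median log2 fold changes of 0.02, 0.21 and 0.12. The shares of all genes that were higher were 51.5%, 49.9% and 49.6%. Without beef tallow pig 3, 10 of 11 had a higher level in C against B, with a median of 0.21. None of the 11 passed the threshold in edgeR in any pair. At an unadjusted p under 0.05 there were 0, 2 and 2 of them in the 3 pairs (15%, 13% and 11.5% of all genes). DESeq2 called ATP5IF1 in C against B.

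ATP5IF1 had 130, 144, 151, 136 and 154 CPM in group R and 119, 141, 118, 132 and 103 CPM in group B. Group C ran from 158 to 215 CPM with a median of 181. All coconut oil pigs were above all other pigs, and groups R and B overlapped. Against group B the log2 fold change of group C was 0.57 (SE 0.15, edgeR adjusted p = 0.210), the smallest adjusted p of the 59 genes in that pair, and 0.55 without beef tallow pig 3. Against group R it was 0.34 (SE 0.14, edgeR adjusted p = 0.299). In the test over all 16 pigs its edgeR adjusted p was 0.0949. DESeq2 called it in group C against B (adjusted p = 0.0309), and the adjusted p over the other planned settings with all pigs reached 0.537.

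The c ring subunit is encoded by several genes with the same mature protein, of which ATP5MC1 and ATP5MC3 were read here. ATP5MC3 had 36.9, 53.5, 54.7, 39.5 and 49.3 CPM in group R and 54.9, 44.9, 0.645, 42.9 and 50.0 CPM in group B. Group C ran from 19.1 to 117 CPM with a median of 73.3. Beef tallow pig 3 had a single read, and of the coconut oil pigs only pig 1 lay below the highest pigs of the other diets. The log2 fold change was 0.65 (SE 0.30, edgeR adjusted p = 0.366) for group C against R, and for group C against B 0.95 (SE 0.52, edgeR adjusted p = 0.492), or 0.60 without beef tallow pig 3. For group B against R it was -0.29, turning to 0.06 without that pig.

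ATP5MC1 had 65.6 ± 17.8 CPM (SD, n = 5) in group R, 72.4 ± 18.5 CPM (SD, n = 5) in group B and 66.3 ± 8.02 CPM (SD, n = 6) in group C, and did not share the low level of beef tallow pig 3, which was its highest pig at 98.1 CPM. ATP5PB, the b subunit of the stalk, had 179 to 279 CPM in group B and 195 to 365 CPM in group C, and its log2 fold change between them was 0.40 (SE 0.18, edgeR adjusted p = 0.423). ATP5F1A, the alpha subunit of the head, had log2 fold changes of 0.05, 0.03 and -0.02 in the 3 pairs, and without beef tallow pig 3 these were -0.04 for group B against R and 0.07 for group C against B.

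**Figure D4:**
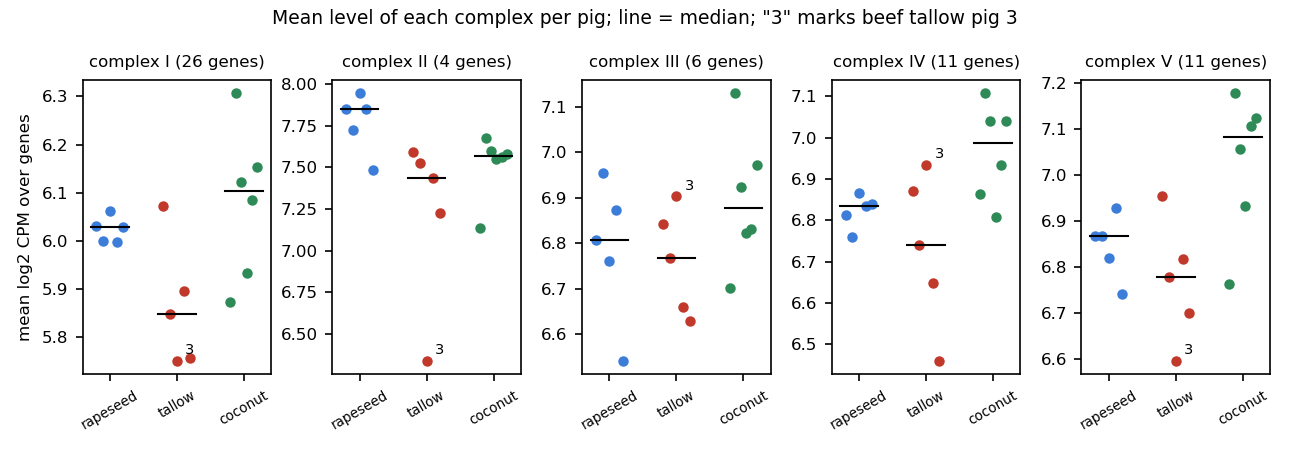
Mean log2 CPM over the kept genes of each complex (y axis, a scale of its own in each panel, not from 0) for each pig by diet, with the median of each diet as a line. Beef tallow pig 3 is far below the rest for complex II, at 6.34, and the median of the coconut oil pigs is above that of the beef tallow pigs in all 5 panels.

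The mean log2 CPM over the genes of a complex was given for each pig as a description. For complex I it ran from 6.00 to 6.06 in group R, from 5.75 to 6.07 in group B and from 5.87 to 6.31 in group C. For complex IV the ranges were 6.76 to 6.87, 6.46 to 6.93 and 6.81 to 7.11, and for ATP synthase 6.74 to 6.93, 6.60 to 6.95 and 6.76 to 7.18. Pigs of all diets overlapped in each complex, and the 5 rapeseed oil pigs lay closest together for complexes I, IV and V. Only complex II had its highest median in group R, at 7.85, the other two being 7.44 (group B) and 7.57 (group C).

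Within diets the 59 genes varied with a median SD of 0.30 on the log2 scale, against 0.39 for all genes tested. The largest SD was that of ATP5MC3, 1.22, and the smallest that of NDUFS5, 0.10.

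Other mitochondrial genes were examined by lists. The 13 protein genes of the mitochondrial genome, which encode the remaining subunits, had median log2 fold changes of -0.03 (group B against R), 0.15 (C against R) and 0.18 (C against B). In the last pair 9 of the 13 were higher in group C (69.2%, against 49.6% of all genes). None of the 13 passed the threshold or had an unadjusted p under 0.05 in edgeR, and DESeq2 called none. COX1, a catalytic subunit of complex IV, had a log2 fold change of 0.62 (SE 0.32, edgeR adjusted p = 0.474) for group C against B. They took 4.74% to 5.46% of reads in group R, 4.61% to 5.84% in group B and 3.58% to 7.28% in group C, with group C widest.

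Of the assembly factors, 21 to 24 were tested in a pair, and UQCC3, needed to assemble complex III, fell in group B against R with a log2 fold change of -0.85 (SE 0.19, edgeR adjusted p = 0.0445). Of the 21 tested in that pair, 7 were higher and 14 lower, with a median of -0.16. UQCC3 was the 1 of the 21 to pass, against 1.11% of all genes, and DESeq2 called 3, HIGD1A, NUBPL and UQCC3, with 200 genes called in all. NUBPL, which delivers iron-sulphur clusters to complex I, had log2 fold changes of -1.20 (SE 0.29, edgeR adjusted p = 0.0577) for group B against R and 0.99 (SE 0.27, edgeR adjusted p = 0.210) for group C against B. In group C against R, 6 of 22 assembly factors were higher and 16 lower, with a median of -0.17 and none past the threshold. Of all genes, 49.9% were higher in that pair. UQCC3 had -0.66 (SE 0.21, edgeR adjusted p = 0.200) and UQCC1 -0.62 (SE 0.22, edgeR adjusted p = 0.241) there. For group C against B, 12 of 24 were higher and 12 lower.

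Among the regulators of mitochondrial gene expression, 10 or 11 were tested in a pair and none passed in edgeR, with 2, 2 and 0 at an unadjusted p under 0.05 in the 3 pairs (15%, 13% and 11.5% of all genes), while DESeq2 called SIRT3 in C against R. PPARGC1A, a coactivator of mitochondrial biogenesis, had a log2 fold change of 0.58 (SE 0.21, edgeR adjusted p = 0.196) in group B and 0.62 (SE 0.23, edgeR adjusted p = 0.269) in group C against R, and SIRT3, a mitochondrial deacetylase, had -0.77 (SE 0.31, edgeR adjusted p = 0.248) and -0.78 (SE 0.21, edgeR adjusted p = 0.114). Both pairs share the rapeseed oil pigs.

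No gene passed among 12 of the citric acid cycle, 7 outer membrane channels and import pores, 12 inner membrane carriers and electron donors, 49 to 52 mitochondrial ribosomal proteins or 44 cytosolic ribosomal proteins in edgeR. At an unadjusted p under 0.05 in edgeR, 15%, 13% and 11.5% of all genes were found in B against R, C against R and C against B. The citric acid cycle list had 0, 1 and 0 of them in these pairs, and the channels and pores 1, 1 and 1. Of the inner membrane carriers there were 3, 3 and 2, of the mitochondrial ribosomal proteins 2, 6 and 1, and of the cytosolic ones 0, 4 and 6. The 3 carriers in B against R were all lower. DESeq2 called SLC25A6, MRPL3 and RPS3 in C against R. For group C against B their median log2 fold changes were 0.05, 0.06, 0.21, 0.03 and 0.10, and those of the inner membrane carriers were led by SLC25A4, an ADP/ATP exchanger, at 0.56 (SE 0.20, edgeR adjusted p = 0.316). Whether the 59 genes differ from these lists was not tested.

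Of the markers of other liver cells, CD163 and LYVE1 passed the test in group B against R. The 9 Kupffer cell and macrophage markers, none at 0 in every pig, summed to 613 to 1161 CPM in group R, 854 to 1702 CPM in group B and 624 to 893 CPM in group C. CD163, a macrophage scavenger receptor, rose in group B against R with a log2 fold change of 0.79 (SE 0.17, edgeR adjusted p = 0.0414), and LYVE1 of the sinusoidal endothelium with one of 0.88 (SE 0.20, edgeR adjusted p = 0.0495). Each was the 1 gene of its list to pass in that pair, where 1.11% of all genes passed. Of the 8 macrophage markers tested there, 7 were higher and 1 lower, from -0.55 for MARCO upwards, and of the 5 endothelial markers 3 were higher and 2 lower, KDR at -0.50 and CDH5 at -0.31. For group C against B, 1 of the 8 macrophage markers was higher and 7 lower, with a median log2 fold change of -0.47. Of all genes, 51.5% were higher in B against R and 49.6% in C against B. In edgeR 4 of the 8 had an unadjusted p under 0.05, all lower, against 6.21% of all genes in that direction, and none passed. LYVE1 had a log2 fold change of 0.86 (SE 0.21, edgeR adjusted p = 0.104) for group C against R, where DESeq2 called it. In that pair 3 of the 5 endothelial markers were higher and 2 lower. The 6 endothelial markers summed to 297 to 478, 381 to 482 and 342 to 435 CPM in groups R, B and C. What part the makeup of the tissue had in the levels of CYCS and the other genes was not tested.

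The 8 stellate cell and fibroblast, 4 cholangiocyte, 7 lymphocyte and 4 erythroid markers had no gene past the threshold in any pair in edgeR. At an unadjusted p under 0.05 there were LRAT of the stellate cells in B against R and JCHAIN of the lymphocytes in C against R, and DESeq2 called JCHAIN. None of the cholangiocyte or adipose markers had enough reads to be tested. Erythroid markers summed to 498 to 4594 CPM in group R, 1616 to 2865 CPM in group B and 1256 to 4898 CPM in group C. Of the 8 liver markers, 4 were higher and 4 lower in B against R, and none passed in any pair in edgeR. CPS1 had log2 fold changes of 0.83 (SE 0.20, edgeR adjusted p = 0.0627) for group B against R and -0.59 (SE 0.17, edgeR adjusted p = 0.235) for group C against B. DESeq2 called it in B against R, and its edgeR adjusted p over all 16 pigs was 0.0461.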

How the data were processed

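Per the labels and the study's methods, 16 libraries were made with the QuantSeq 3′ kit (FWD) from liver RNA, 1 per pig. Read quality was examined by the authors in FastQC 11.8. Trimming was done in FLEXBAR 3.5.0 and alignment to Sus scrofa 11.1 in TopHat 2.1.1, and HTSeq-count 0.11.1 assigned reads to the genes of Ensembl 96. The strand setting of the counting is not given in the sources used here, so overlapping and antisense genes are uncertain, as are genes with near-identical copies, since a read with more than 1 alignment was assigned to none. The deposited values are counts, whole numbers without normalization. The 5 tallies of reads on no gene, 44.9% to 57.2% of the tallied reads, stayed out of library sizes and tests. Of the identifiers, 14857 have a symbol.

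Pairs of diets were fitted on their own pigs in edgeR 4.0.16 (R 4.3.3, quasi-likelihood test), with TMM, filterByExpr (minimum count 10, minimum total 15), no covariate, Benjamini-Hochberg adjustment over all genes tested and a threshold of 0.05. The first diet of a pair is the reference. A further test of any diet difference used all 16 pigs. The SE is the size of the log2 fold change divided by the square root of F. All 59 genes passed the filter in every fit, and their p-values were never adjusted over the list alone. The fits were also run on simulated counts, with the same dispersion for every gene and no outlying library. That run does not show how they behave on these data. Alternatives were DESeq2 1.42.0, RLE, no filter, 10 reads in 5 libraries, all 16 pigs in 1 fit, a covariate for sex, a block for the replicate number and each pig left out.

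The members and lists were chosen with earlier results of these data known. Genes were named if past the threshold, among the 5 smallest p in a pair, of smallest p or highest CPM in their complex, or an isoform or subunit fixed in the design. One gene that met this rule is left out of the text and figures, while the fits and counts include it. NDUFS5, NDUFB5, UQCRC1, UQCRFS1 and ATP5F1A were added after their values were seen. Positions are from RefSeq's Sscrofa11.1 annotation, matched by symbol for 36 of the 59. The labels name 1 RNA kit (PureLink) and the methods another (SPLIT). No 2 libraries were identical among 120 pairs. P-values measure the spread between pigs.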

Additional observations from a re-analysis of the deposited data

Results flagged for a closer look

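Within each diet, the highest and lowest pig were compared with the gap to their nearest neighbour for CPM of the named genes. Of 78 groups of 5 or 6 pigs examined, 2 held a pig far from the others, and chance flags about 1 in 20 groups. For SDHC, rapeseed oil pig 3 had 881.838 CPM, with the nearest pig of its diet at 595 CPM and the lowest at 514 CPM. For ATP5MC3, beef tallow pig 3 had 0.645181 CPM, with the nearest pig of its diet at 42.9 CPM and the highest at 54.9 CPM.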

How the results depend on the processing

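Counts of calls depended on the tool and the filter, while the median of the 59 genes kept its sign in each pair. Genes past the threshold numbered 70 for group B against R, 9 for C against R, 4 for C against B and 49 for any diet difference in the edgeR fits reported. DESeq2 gave 200, 92, 47 and 231, with 1, 3, 1 and 3 of the 59 genes among them. Without a filter on low counts there were 190, 82, 22 and 190, with 1, 1 (SDHD), 0 and 1 (CYCS) of the 59, and all 16 pigs in 1 fit gave 8 for C against B. Leaving out each pig in turn gave 9 to 149 genes for B against R, 3 to 27 for C against R, 4 to 9 for C against B and 15 to 96 for any difference. For B against R the count was 15, 30, 11 and 9 without rapeseed oil pigs 1, 2, 3 and 5 and 35, 36, 149, 15 and 23 without beef tallow pigs 1 to 5. For C against R it was 4, 3 and 25 without rapeseed oil pigs 2, 3 and 4 and 19, 27, 5 and 4 without coconut oil pigs 1, 3, 4 and 6. It was 9 without beef tallow pig 2 for C against B, and for any difference 28, 26 and 22 without rapeseed oil pigs 1, 3 and 5 and 96 and 15 without beef tallow pigs 3 and 4. Of the 59 genes, 0 to 1 passed for B against R, 0 to 1 for any difference (CYCS, without coconut oil pig 3) and 0 in both other pairs. The cause was not tested. The median log2 fold change of the 59 genes over all alternatives lay between -0.09 and -0.00 for B against R, 0.06 and 0.14 for C against R, and 0.10 and 0.20 for C against B. Depth limits the low genes, and COX6A2 rested on 4 to 42 reads per pig.

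The replicate numbers do not pair the pigs. Deviations of same-numbered pigs correlated between -0.25 and 0.145. With the replicate block, 35 genes passed for B against R and 26 for any difference, 0 of the 59 for B against R (CYCS 1.08, edgeR adjusted p = 0.0801).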
